A study of Mus musculus with 2 samples.

Results

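The 67 genes described here are the replication-dependent histone genes of the mouse, taken as every gene whose symbol begins with Hist1h, Hist2h, Hist3h or Hist4h and that had at least 1 unique molecular identifier (UMI, a count of 1 captured transcript) in a cell. They are 67 of the 32285 genes in the count tables, and no gene with such a symbol was left out. They comprise 6 genes of the linker histone H1, 18 of H2A, 18 of H2B, 12 of H3 and 13 of H4. In the cells, 65 had a UMI in the knockout-labelled library and 66 in the wild-type library. Both libraries were made from mouse forebrains at embryonic day 18.5 by droplet single-cell RNA sequencing. One was labelled as a Cyfip2 knockout and the other as wild type, and each pooled 2 forebrains. The strain, the sex and the allele were not given in the sources used here. With 1 library a group there is no test between the groups, and intervals cover counting error only.

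Barcodes of 1000 UMIs or more were taken as cells where they had 500 genes or more and no more than 10% mitochondrial UMIs, which gave 12855 knockout-labelled and 9086 wild-type cells with medians of 8273 and 9998 UMIs. The 2 sets of cells had 32 barcodes in common. Cyfip2 itself, the gene named in the label, had 84.0 CPM (95% Poisson interval 82.4 to 85.6) in knockout-labelled and 83.9 CPM (82.2 to 85.6) in wild-type cells, CPM being UMIs for each 1000000 UMIs of the same cells. In cycling cells, defined further on, it had 70.6 CPM in the knockout-labelled and 33.7 CPM in the wild-type library. In the dividing clusters it had 70.3 CPM in the knockout-labelled and 43.6 CPM in the wild-type library. It was lower in knockout-labelled excitatory neurons, with 92.6 CPM (90.3 to 94.9) against 103.6 CPM (101.1 to 106.1) in wild-type ones. In the low range, also defined further on, it had 85.9 against 98.7 CPM. The loss that the label names is thus not seen in the Cyfip2 level, although a 3' tag outside a deleted part would not show a deletion. The library is called knockout-labelled throughout. Barcodes under 100 UMIs, which hold mainly free RNA, had 1463 and 1325 CPM of the 67 genes together in the knockout-labelled and wild-type libraries.

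Replication-dependent histone genes encode the core histones H2A, H2B, H3 and H4, which form the nucleosome, and the linker histone H1, which binds the DNA where it enters and leaves it. Their transcripts are made in bulk when DNA is replicated, and most end in a conserved stem-loop instead of a poly(A) tail. The stem-loop is bound by the stem-loop binding protein, and the transcripts are broken down when replication ends. Droplet libraries of this kind are primed on poly(A), so a transcript that ends at the stem-loop is captured only in so far as it carries a run of A. Part of these genes are known to give polyadenylated transcripts in differentiated cells as well.

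The stem-loop is shown because it divides the genes in what follows. It was searched as the arms GGNNNT and ANNNCC, 6 bases each and paired with each other, around the 4-base loop TTTN, on the transcript strand of the GENCODE M21 annotation of GRCm38, which is the build of the files (mm10). It lay in annotated transcripts of 44 of the 67 genes and of 57 of 55450 genes in all. The 26 bases around it, with the stem-loop in capitals, are given for 5 genes whose levels are described below.
Hist1h2ae: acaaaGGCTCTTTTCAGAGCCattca
Hist3h2ba: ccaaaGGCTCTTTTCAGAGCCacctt
Hist3h2a: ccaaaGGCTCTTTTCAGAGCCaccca
Hist1h3c: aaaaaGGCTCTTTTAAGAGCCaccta
Hist1h4d: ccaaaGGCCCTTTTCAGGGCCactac
Hist1h2ae lies at chr13:23570517-23571220, minus strand, Hist3h2ba at chr11:58948920-58949533, plus strand, Hist3h2a at chr11:58954685-58956830, plus strand, Hist1h3c at chr13:23744973-23745602, minus strand, and Hist1h4d at chr13:23581598-23582735, plus strand. Hist1h2ae, Hist3h2ba and Hist3h2a have the same 16 letters, although their levels ran in opposite directions between cycling cells and the low range, both defined below.

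Promoters of 62 of the 67 genes were matched in RefSeq (GRCm38.p6), as windows of 250 bases before to 50 after the start. The letters CCAAT, on either strand, were in 53 of these (85.5%), against 37.9% of 27025 promoters. They were in all 6 matched H1, 18 H2A, 16 H2B and 10 H3 promoters, and in 3 of 12 H4 promoters. TATAAA was in 35 (56.5%, against 14.2% of all promoters). ATTTGCAT, the octamer motif, was in 13 (21%, against 1.75% of all promoters), of which 7 were H2A and 6 H2B genes. The 150 bases before the start are given for 2 genes that were higher in cycling cells than in the low range and 2 that were lower. These 3 motifs are in capitals on either strand.
Hist1h2ae: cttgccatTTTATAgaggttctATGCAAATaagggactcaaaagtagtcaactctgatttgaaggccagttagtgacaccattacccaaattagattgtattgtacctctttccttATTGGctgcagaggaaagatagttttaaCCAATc
Hist1h1b: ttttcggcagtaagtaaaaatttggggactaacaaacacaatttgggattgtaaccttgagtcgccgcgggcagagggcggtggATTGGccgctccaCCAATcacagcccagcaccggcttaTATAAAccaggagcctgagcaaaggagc
Hist3h2ba: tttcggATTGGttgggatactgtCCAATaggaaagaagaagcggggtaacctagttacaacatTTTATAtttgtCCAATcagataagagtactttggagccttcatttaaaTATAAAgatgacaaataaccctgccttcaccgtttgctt
Hist3h2a: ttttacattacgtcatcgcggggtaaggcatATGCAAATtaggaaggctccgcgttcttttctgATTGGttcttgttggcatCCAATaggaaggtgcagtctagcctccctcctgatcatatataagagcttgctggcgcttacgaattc
These stretches are chr13:23571221-23571370 on the minus strand, chr13:21780626-21780775 on the minus strand, chr11:58948761-58948910 on the plus strand and chr11:58954535-58954684 on the plus strand. All 4 hold CCAAT, so its letters do not separate the genes that were higher in cycling cells than in the low range from those that were lower.

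To place cells in the cell cycle, each cell was thinned to 3000 UMIs, and the UMIs of 39 S phase genes and 45 G2 and M phase genes were counted, none of them a histone gene of the 67. The S range held cells with at least 5 S phase UMIs and no fewer than of the other list, the G2M range cells with at least 5 and more G2 and M phase UMIs, and the low range cells with at most 1 UMI of both lists. They numbered 821 and 651 cells in the S range, 1155 and 816 in the G2M range, and 2608 and 1894 in the low range, in the knockout-labelled and wild-type libraries. Another 1890 and 923 cells had too few UMIs to be thinned, and 1306 and 1001 cells had 4 to 6 UMIs of their higher list, close to the limit. Genes counted as measured in a comparison where 1 of its sets of cells reached 5 CPM and the sets together held 30 UMIs. A gene that reached 5 CPM in 1 set only was counted because of the set where it was high. Such a gene could hardly be called in the other direction, which limits every count of higher and lower genes below. They were called higher or lower from a difference of 1.5-fold on, where the counting interval of the ratio left out 1, which is a criterion of size, with no test behind it.

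Histone transcripts were higher in the S range and much higher in the G2M range than in the low range, in both libraries. A cell of the G2M range can also hold many S phase UMIs, as long as it has more of the other list. The 67 genes together had 1919 and 1946 CPM in the S range, 4587 and 4501 CPM in the G2M range and 1076 and 995 CPM in the low range of the knockout-labelled and wild-type libraries. In the S range 35 of 40 measured histone genes of the knockout-labelled library were higher and 2 lower, where 19.3% of all measured genes were higher and 16% lower. In the wild-type library 35 of 39 were higher and 2 lower, against 22.7% and 16% of all genes. The log2 ratio of the sum was 0.83 and 0.97, but it moved to 0.43 and 0.50 with a minimum of 3 list UMIs, where 22 genes were higher in the knockout-labelled and 26 in the wild-type library and none lower, and to 1.18 and 1.42 with cells thinned to 1500 UMIs. In the G2M range 45 of 47 genes of the knockout-labelled library were higher and 2 lower, against 22% and 21.6% of all genes, and 46 of 48 of the wild-type library were higher and 2 lower, against 23.6% and 23%. The 2 lists that set the ranges were themselves higher in the S range, which is no result. Of the S phase list all 39 genes were, from 73.3 against 22.6 CPM in the knockout-labelled and 69.2 against 23.0 CPM in the wild-type library for the DNA polymerase subunit gene Pold3 and 1.94 and 1.92 on the log2 scale for the clamp loader gene Rfc2, to 7.81 and 8.52 for the replication checkpoint gene Clspn. The other named genes of that list rest on few low range UMIs. E2f8, a transcription factor of the cycle, had 16.8 against 0.0316 CPM in the knockout-labelled and 23.5 against 0.0753 CPM in the wild-type library, and Mcm10, a replication initiation factor, had 23.3 against 0.126 CPM in the knockout-labelled library and 25.4 CPM against no UMI in the wild-type library. Of the G2 and M phase list 38 of 39 and 41 of 42 measured genes were higher, with G2e3 not called (0.41 and 0.24), Ncapd2 at 1.38 and 1.07, Hjurp at 1.36 and 1.54, Cdca2 at 5.84 and 6.85, Top2a at 6.61 and 7.57 and Pbk at 6.92 and 8.34 on the log2 scale.

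The S range held many cells that were named as neurons, 19.0% and 22.4% of it excitatory and 27.0% and 21.4% GABAergic. A stricter set was therefore added after the data had been seen, with cells of at least 20 UMIs of both lists together, called cycling, which held 1203 knockout-labelled and 841 wild-type cells. Of these 60.7% and 56.6% were in the dividing clusters, and 0.499% and 0.238% were excitatory neurons. The limit had 176 and 114 cells of 15 to 24 UMIs close to it. Cycling cells were cut by the share of S phase UMIs into early (70% and over), rising (50 to 70%), middle (30 to 50%), late (10 to 30%) and mitotic (under 10%) arcs. They held 162 and 106, 133 and 113, 203 and 150, 376 and 258 and 329 and 214 knockout-labelled and wild-type cells in this order, and 23.6% and 16.7% of the middle arc and 9.66% and 6.49% of the low range had a top doublet score. The low range, in contrast, held 60.3% and 67.9% excitatory and 29.6% and 23.4% GABAergic neurons and no cell of the dividing clusters, so cell cycle and cell class cannot be told apart in comparisons with it.

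Along these arcs the histone sum was lowest in the early arc, stood at its highest in the middle arc and was lower than that in the late and mitotic arcs. It was 1173 and 1104 CPM in the early, 4949 and 5020.2 CPM in the rising, 7344 and 8158 CPM in the middle, 5745 and 5208 CPM in the late and 2994 and 2771 CPM in the mitotic arc of the knockout-labelled and wild-type libraries. By their limits the early and rising arcs lie in the S range, and the middle, late and mitotic arcs in the G2M range. The high sum of the G2M range thus takes in the middle arc, whose cells hold many S phase UMIs. The early arc was close to the low range in its sum, but without Hist3h2ba and Hist3h2a it had 995 and 967 CPM against 411 and 366 CPM in the low range, and 23 of 31 and 24 of 31 measured genes were higher and 3 and 2 lower, against 22.9% and 25.7% of all genes higher and 26.4% and 24.4% lower. Per cell thinned to 3000 UMIs, the median was 23 and 28 histone UMIs in the middle arc and 3 and 3 in the low range. Of 55 histone genes with at least 50 UMIs over the arcs in each library, 40 peaked in the middle arc in the knockout-labelled and 47 in the wild-type library, 38 of them in both, and none peaked in the early arc. Set against the early arc, 48 of 48 and 45 of 48 measured genes were higher in the middle arc and none lower, against 7.93% and 7.99% of all genes higher and 6.42% and 9.42% lower. Set against the mitotic arc, 39 of 52 and 42 of 53 were higher in the middle arc and 1 and 2 lower, against 9.23% and 10.5% of all genes higher and 12.4% and 12.3% lower.

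**Figure D1:**
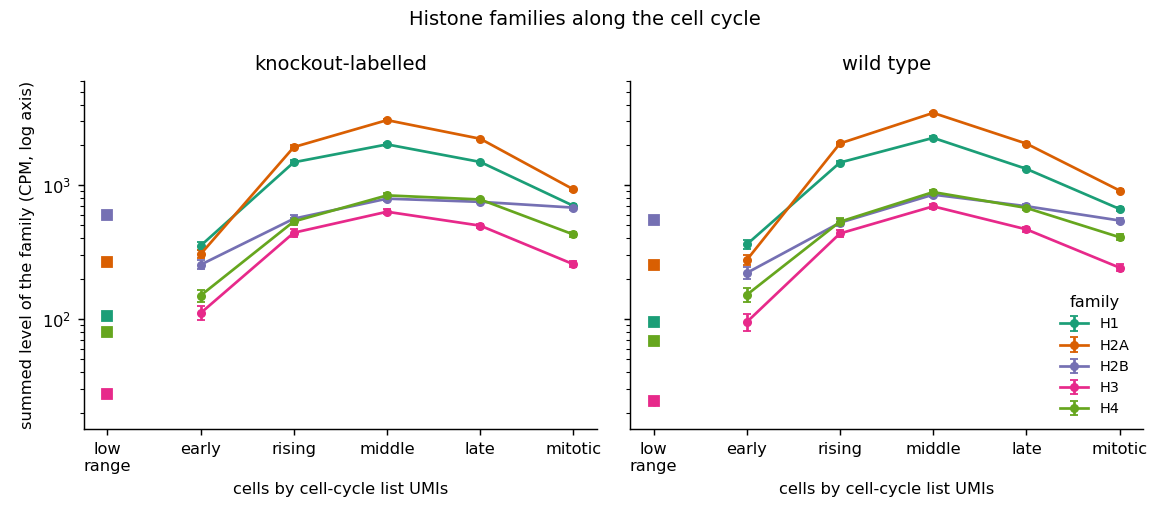
Summed level of each histone family (CPM, log axis) in cells of the low range (squares) and in the 5 arcs of cycling cells (points joined by lines), for the knockout-labelled library on the left and the wild-type library on the right, with 95% Poisson intervals. H1, H2A, H3 and H4 are far above their low range level in the middle arc, and H2B, whose low range level holds Hist3h2ba, is at 793 and 849.8 CPM against 595 and 554 CPM.

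Set against the low range, the middle arc had 49 of 52 measured histone genes of the knockout-labelled library higher and 2 lower, where 21.2% of all genes were higher and 26.3% lower, and 49 of 52 of the wild-type library higher and 2 lower, against 22.2% and 26.8%. The median log2 ratio of the measured histone genes was 4.30 and 4.997, and that of all measured genes was -0.05 in both libraries. Of 51 genes measured in both, 48 were higher in both and 2 were lower in both. Most of the measured histone genes reached 5 CPM in the middle arc only, so they could hardly have been called lower. The 2 lower genes were Hist3h2ba and Hist3h2a, and the gene not called was Hist1h2bc.

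The 5 H1 genes with at least 100 UMIs were all higher in the middle arc than in the low range. Hist1h1b, which encodes the linker histone H1.5, had 999.7 against 4.13 CPM in the knockout-labelled library and 1129 against 2.15 CPM in the wild-type library. The low range level was close to or below the free RNA estimated from haemoglobin UMIs in neurons. That estimate was 4.09 CPM in the knockout-labelled and 3.503 CPM in the wild-type library. It is above the wild-type level, and so too high for this gene there. Hist1h1a (H1.1) had 159.7 against 2.40 CPM in the knockout-labelled library and 191 against 2.11 CPM in the wild-type library. Hist1h1d (H1.3) had 154 against 11.6 CPM in the knockout-labelled library and 182 against 9.45 CPM in the wild-type library. Hist1h1e (H1.4), which overlaps Hist1h2be on the same strand so that their reads may be shared, had 576 against 32.3 CPM in the knockout-labelled library and 595 against 27.0 CPM in the wild-type library. The smallest ratio was that of Hist1h1c (H1.2), with 128 against 55.5 CPM in the knockout-labelled library and 159.7 against 54.7 CPM in the wild-type library, a log2 ratio of 1.20 (95% counting interval 1.04 to 1.36) and 1.55 (1.39 to 1.70).

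Of the 67 genes, 21 overlap an antisense gene of the annotation, most of them H2A genes, and whether reads were counted by strand is not known from the sources used here. Among the 15 H2A genes with at least 100 UMIs, 12 were called higher in the middle arc in both libraries, Hist3h2a was lower, and Hist2h2ab and Hist1h2ao were under the measured minimum. Hist1h2ae had 1601 against 48.1 CPM in the knockout-labelled library and 1826 against 46.0 CPM in the wild-type library. Hist1h2ap, which shares 93% of its 60-base stretches with other genes and is uncertain for that reason, had 682 against 18.5 CPM in the knockout-labelled library and 778 against 18.3 CPM in the wild-type library. Hist1h2ab had 195 against 2.40 CPM in the knockout-labelled library and 199 against 2.22 CPM in the wild-type library, and its ratio was 6.34 and 6.48 on the log2 scale. The level of each in the middle arc was many times that in the low range. Hist1h2af had 139 against 0.316 CPM in the knockout-labelled library and 159.7 against 0.489 CPM in the wild-type library, from 10 and 13 UMIs in the low range. Hist2h2ac had 105 against 1.48 CPM in the knockout-labelled library and 129 against 1.09 CPM in the wild-type library. Hist1h2ac had 103 against 28.5 CPM in the knockout-labelled library and 87.1 against 23.3 CPM in the wild-type library, a smaller difference of 1.85 and 1.90 on the log2 scale. Hist1h2ak had 73.9 against 3.00 CPM in the knockout-labelled library and 89.2 against 2.82 CPM in the wild-type library, and Hist2h2aa1, which has a near-identical copy in Hist2h2aa2, had 34.5 against 1.42 CPM in the knockout-labelled library and 42.1 against 1.17 CPM in the wild-type library. The levels over all cells of the other H2A genes in the knockout-labelled and wild-type libraries were Hist1h2an at 3.01 and 3.20, Hist1h2ag at 2.04 and 2.45, Hist1h2ai at 2.19 and 2.17, Hist1h2ad at 1.44 and 1.39, Hist2h2ab at 0.692 and 0.68 and Hist1h2ao at 0.608 and 0.689 CPM.

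The H2B genes fell into 2 kinds. Hist3h2ba had 228 against 503 CPM in the knockout-labelled library and 229.8 against 474 CPM in the wild-type library, a log2 ratio of -1.14 (95% counting interval -1.25 to -1.04) and -1.05 (-1.16 to -0.93). Its neighbour Hist3h2a, an H2A gene that overlaps Trim17, had 65.3 against 162 CPM in the knockout-labelled library and 67.3 against 154 CPM in the wild-type library, a log2 ratio of -1.31 (95% counting interval -1.51 to -1.11) and -1.20 (-1.42 to -0.99). Both genes were lower in all 5 arcs than in the low range. Radial glia with under 5 UMIs of each cycle list were also below it, with 219.6 and 193.1 CPM of Hist3h2ba and 84.5 and 90.7 CPM of Hist3h2a. The low range is mostly neurons, so cell cycle and cell class cannot be told apart for these genes in comparisons with it. Within cycling cells both genes were called higher in the middle arc than in the early arc. The log2 ratios were 0.74 and 1.09 for Hist3h2ba and 0.67 and 1.21 for Hist3h2a in the knockout-labelled and wild-type libraries. In barcodes under 100 UMIs Hist3h2ba had 559 and 527 CPM, and the estimate of free RNA gives 63.2 and 53.6 CPM of its low range level. For some other genes that estimate lies above their whole low range level, so it may be too high here. Hist1h2bc was not called, with 51.1 against 64.7 CPM in the knockout-labelled library and 53.5 against 55.5 CPM in the wild-type library, and stood at 137 and 107 CPM in the mitotic arc, its highest. The other measured H2B genes were higher in the middle arc.

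Hist1h2bj had 78.2 against 3.22 CPM in the knockout-labelled library and 81.8 against 2.71 CPM in the wild-type library. Hist1h2be had 80.3 against 9.03 CPM in the knockout-labelled library and 81.1 against 8.24 CPM in the wild-type library. Hist1h2bm had 79.1 against 1.67 CPM in the knockout-labelled library and 76.5 against 1.69 CPM in the wild-type library. Each of them was several times higher in the middle arc. Hist2h2bb had 64.3 against 1.17 CPM in the knockout-labelled library and 81.1 against 0.715 CPM in the wild-type library, Hist1h2bn had 62.5 against 1.14 CPM in the knockout-labelled library and 59.5 against 1.24 CPM in the wild-type library, and Hist1h2bb had 48.9 against 1.17 CPM in the knockout-labelled library and 62.7 against 0.866 CPM in the wild-type library. Hist2h2be peaked in the mitotic arc in both libraries, at 17.5 and 15.4 CPM, against 2.15 and 2.45 CPM in the low range. The levels over all cells of the other H2B genes in the knockout-labelled and wild-type libraries were Hist1h2bf at 4.53 and 3.96, Hist1h2br at 3.42 and 3.37, Hist1h2bh at 3.30 and 3.34, Hist1h2bg at 3.09 and 2.97, Hist1h2bp at 1.57 and 1.57, Hist1h2bk at 0.965 and 1.23 and Hist1h2bl at 1.12 and 0.943 CPM.

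Of the H3 genes, Hist1h3c had the largest ratio of the measured genes, with 246 against 0.0947 CPM in the knockout-labelled library and 293 against 0.339 CPM in the wild-type library, but its low range level rests on 3 and 9 UMIs. The log2 ratio was 11.34 (95% counting interval 9.79 to 13.62) and 9.76 (8.83 to 10.89). Hist1h3e had 142 against 5.93 CPM in the knockout-labelled library and 137 against 5.53 CPM in the wild-type library, and Hist1h3i had 83.7 against 2.11 CPM in the knockout-labelled library and 89.2 against 1.81 CPM in the wild-type library. Both were many times higher in the middle arc. Hist1h3d differed less, with 41.2 against 11.8 CPM in the knockout-labelled library and 40.7 against 9.82 CPM in the wild-type library. Hist1h3f had 40.0 against 1.04 CPM in the knockout-labelled library and 50.3 against 0.978 CPM in the wild-type library, and Hist1h3a had 35.7 against 1.64 CPM in the knockout-labelled library and 37.5 against 1.32 CPM in the wild-type library. The other H3 genes had, over all cells, Hist2h3c1 at 2.39 and 2.34, Hist1h3b at 1.98 and 1.95, Hist2h3c2 at 1.77 and 1.49, Hist2h3b at 1.46 and 1.33, Hist1h3g at 1.02 and 0.871 and Hist1h3h at 0.6 and 0.444 CPM in the knockout-labelled and wild-type libraries. Hist2h3c1 shares all of its 60-base stretches with other genes and its value is uncertain.

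The H4 genes are known to encode the same protein, and the H4 genes that were measured were higher in the middle arc. Hist1h4d had 512 against 37.1 CPM in the knockout-labelled library and 569 against 34.9 CPM in the wild-type library. Hist1h4i had 114 against 15.0 CPM in the knockout-labelled library and 114 against 13.8 CPM in the wild-type library, and Hist1h4h had 82.2 against 7.76 CPM in the knockout-labelled library and 82.5 against 6.02 CPM in the wild-type library. Hist4h4, on another chromosome than the clusters, differed least, with 12.6 against 7.89 CPM in the knockout-labelled library and 11.7 against 5.57 CPM in the wild-type library and a log2 ratio of 0.68 (95% counting interval 0.16 to 1.16) and 1.07 (0.48 to 1.62). Hist2h4 had 16.3 against 5.40 CPM in the knockout-labelled library and 10.3 against 3.65 CPM in the wild-type library, and Hist1h4c had 47.7 against 3.53 CPM in the knockout-labelled library and 43.6 against 2.03 CPM in the wild-type library. The rest had, over all cells, Hist1h4a at 3.09 and 2.96, Hist1h4j at 2.77 and 2.00, Hist1h4n at 1.16 and 0.853, Hist1h4k at 1.09 and 0.834, Hist1h4b at 0.714 and 0.925 and Hist1h4f at 0.73 and 0.553 CPM in the knockout-labelled and wild-type libraries. The 7 genes under 100 UMIs were Hist1h2ah with 42 UMIs, Hist1h1t with 16, Hist2h2aa2 with 10, Hist1h2bq with 2, and Hist1h4m, Hist1h2ba and Hist1h2aa with 1 each over both libraries. Hist1h1t, Hist1h2ba and Hist1h2aa are known from the testis.

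**Figure D2:**
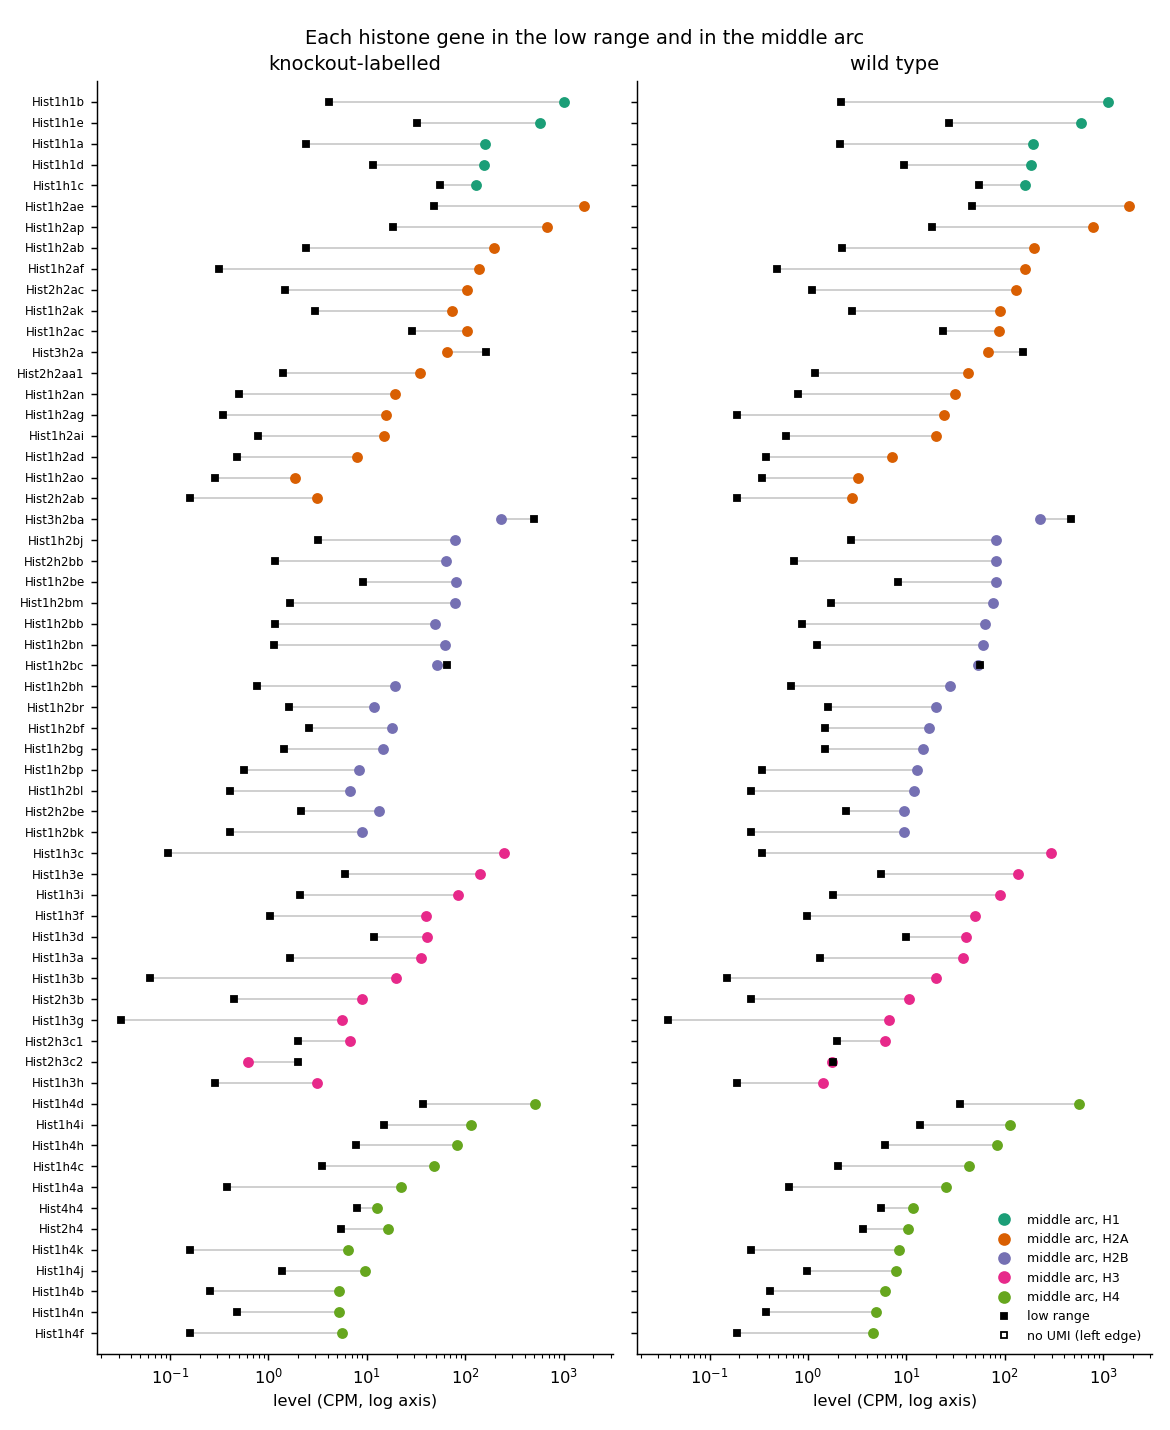
Level (CPM, log axis) of the 60 genes with at least 100 UMIs in the middle arc (coloured points, by family) and in the low range (black squares), for the knockout-labelled library on the left and the wild-type library on the right. The points lie right of the squares for most genes, and left of them for Hist3h2ba and Hist3h2a in both libraries.

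Genes were grouped by their annotated 3' end. In 22 genes the annotation runs past the stem-loop, by more than 100 bases, and 15 of these have a poly(A) signal (AATAAA or ATTAAA) after it. In another 22 the annotation ends within 100 bases of the stem-loop, and in 23 no annotated transcript holds it, 15 of these with gene models whose length is a multiple of 3. The middle arc stood less far above the low range in the first group than in the others, with a median log2 ratio of 3.05 and 3.17 in the first, 4.60 and 5.32 in the second and 5.24 and 5.33 in the third group, over the measured genes of the knockout-labelled and wild-type libraries. The median level in the middle arc was 56.5 and 58.8 CPM in the first, 18.9 and 22.1 CPM in the second and 13.2 and 19.8 CPM in the third group. In the low range it was 8.46 and 6.91 CPM in the first, 0.521 and 0.395 CPM in the second and 0.442 and 0.602 CPM in the third. The first group thus had the highest median in both sets of cells, but its models are also longer, with a median of 1255 bases against 483.5 and 411. For each 1000 bases of the longest annotated transcript, the median in the middle arc was 31.9 and 32.5 CPM in the first, 35.9 and 43.3 CPM in the second and 20.7 and 31.6 CPM in the third group. On the same scale it was 3.96 and 2.88 CPM in the low range of the first, 1.008 and 0.959 CPM in that of the second and 0.819 and 0.934 CPM in that of the third group. Per length the first group had the highest median in the low range, while in the middle arc its median lay between those of the other groups. A UMI counts 1 captured transcript whatever its length. The value for each 1000 bases thus stands beside the CPM and does not replace it, and an effect of length was not tested. At least 5 CPM in the low range was reached by 14 and 13 genes of the first group, 2 and 2 of the second and 1 and 1 of the third. Most measured genes outside the first group were thus counted because of their middle arc level, which favours large ratios. How far the difference in median log2 ratio between the groups rests on this was not tested. Hist3h2ba, Hist3h2a, Hist1h1c, Hist1h2ac, Hist4h4 and Hist2h4 belong to the first group. Hist1h2bc, whose models hold no stem-loop, is the gene of the third group at or above 5 CPM.

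**Figure D3:**
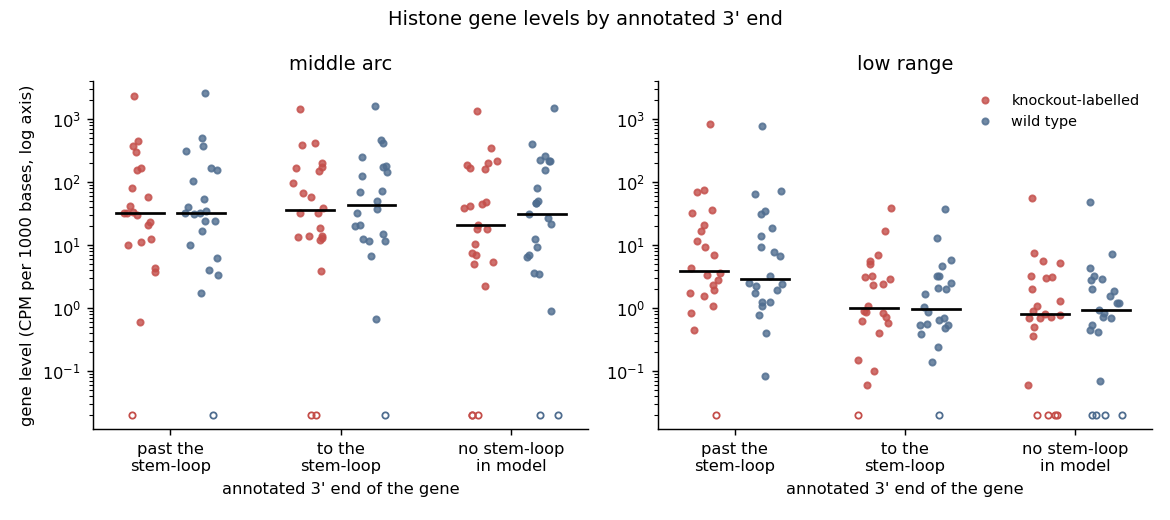
Level of each of the 67 genes (CPM for each 1000 bases of the longest annotated transcript, log axis) by its annotated 3' end, in the middle arc on the left and in the low range on the right. Points are genes, the knockout-labelled library stands left of the wild-type library, bars are medians, and open points at the lower edge are genes without a UMI. The genes annotated past the stem-loop have a median of 31.9 and 32.5 CPM for each 1000 bases in the middle arc, between the other groups, and of 3.96 and 2.88 in the low range, above them.

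Cell classes were named from lists of marker genes, after clustering without the 67 genes. The histone sum was highest in the dividing clusters, at 6086 and 6414 CPM in the knockout-labelled and wild-type libraries, and lower in GABAergic neurons (1645 and 1534 CPM), radial glia (1418 and 1418 CPM), intermediate progenitors (1228 and 1119 CPM) and excitatory neurons (1062 and 991 CPM). Without Hist3h2ba and Hist3h2a these sums were 5687 and 6066 CPM in dividing cells, 838 and 769 CPM in GABAergic neurons, 1172 and 1200.3 CPM in radial glia, 580.3 and 519 CPM in intermediate progenitors and 391 and 342 CPM in excitatory neurons. Radial glia below both cycle minimums, with under 5 UMIs of each list, a set added after the data had been seen, had 505 and 473 CPM without these 2 genes.

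**Figure D4:**
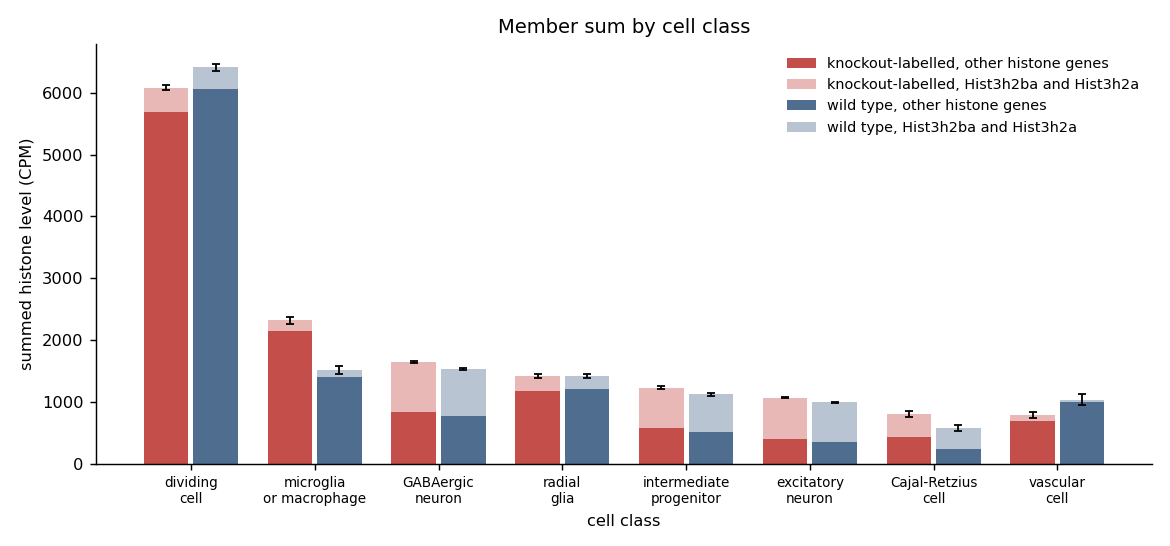
Summed level of the 67 genes (CPM) by cell class, with the knockout-labelled library left of the wild-type library, 95% Poisson intervals, and the part from Hist3h2ba and Hist3h2a in the lighter shade. The dividing clusters stand at 6086 and 6414 CPM, and in excitatory neurons the lighter part is the larger one.

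As a share of all UMIs of the class, histone RNA was lower in excitatory than in GABAergic neurons in both libraries. Of 26 measured histone genes in the knockout-labelled library 22 were lower in excitatory neurons and none higher, where 9.86% of all genes were lower and 9.37% higher. In the wild-type library 20 of 25 were lower and none higher, against 10.3% and 11% of all genes. Hist1h3d had 10.7 CPM in excitatory against 38.1 CPM in GABAergic neurons of the knockout-labelled library and 8.59 against 31.1 CPM in the wild-type library. Hist1h1d had 9.25 CPM in excitatory against 39.8 CPM in GABAergic neurons of the knockout-labelled library and 7.86 against 33.6 CPM in the wild-type library, and Hist1h2ac had 27.5 CPM in excitatory against 82.8 CPM in GABAergic neurons of the knockout-labelled library and 24.1 against 78.1 CPM in the wild-type library. In contrast, Hist3h2a had 167 CPM in excitatory against 180.4 CPM in GABAergic neurons of the knockout-labelled library and 166 against 172 CPM in the wild-type library, and Hist3h2ba had 504 CPM in excitatory against 627 CPM in GABAergic neurons of the knockout-labelled library and 483 against 593 CPM in the wild-type library, neither of them called. In cells of the low range alone, a comparison added after the data had been seen, 13 of 21 measured genes were lower in excitatory neurons in each library and none higher, 11 of them in both, against 9.76% and 10.6% of all genes lower and 10.8% and 12.2% higher. Among excitatory clusters Hist3h2ba was not even, with 239.7 to 744 CPM over its 10 clusters in the knockout-labelled and 194 to 729 CPM in the wild-type library. Hist1h2ac was not even either, and its ranges overlapped between the classes. It had 13.6 to 94.95 CPM over excitatory and 30.6 to 159 CPM over GABAergic clusters of the knockout-labelled library. In the wild-type library it had 9.91 to 89.5 against 32.1 to 161 CPM. Its cluster medians were 25.3 against 58.8 CPM in the knockout-labelled and 21.2 against 52.1 CPM in the wild-type library. The part of single clusters in the class difference was not tested. In cells of the low range the log2 ratio of the histone sum was -0.44 in the knockout-labelled and -0.43 in the wild-type library, against -0.63 in both over all cells of the classes. Excitatory neurons had more UMIs a cell, with medians of 9118 and 10941, against 6300 and 7262 in GABAergic neurons, and the part of depth in the result was not tested.

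Between the knockout-labelled and wild-type libraries the histone genes differed by less than 1.5-fold in most sets of cells. Over all cells none of 34 measured histone genes was called, against 1.15% of all genes called higher and 0.183% called lower. Small differences were in 1 direction, with 25 of 34 intervals above 0 and none below, against 17.5% and 29.1% of all genes. The sum was 1710.2 and 1586 CPM, a log2 ratio of 0.11 (0.10 to 0.12). In cycling cells none of 51 was called, against 2.59% higher and 1.30% lower, and the sums of 4628 and 4623 CPM gave 0.00 (-0.01 to 0.02). None of 41 was called in the S range, against 1.27% higher and 2.99% lower, none of 49 in the G2M range, against 4.24% and 1.53%, and none of 17 in the low range, against 1.21% and 0.390%. In the low range the sum was 1076 and 995 CPM, a log2 ratio of 0.11 (0.09 to 0.14).

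The measured genes of the neurons had such small differences too. In excitatory neurons none of 15 measured histone genes was called, against 0.494% of all genes higher and 0.138% lower, but 12 had an interval above 0, as had 13.9% of all genes. Their median log2 ratio was 0.19, against -0.01 for all measured genes, and the sum gave 0.10 (0.08 to 0.12). Larger differences lay under the minimum of 5 CPM. There Hist1h1b had 3.56 against 1.27 CPM (log2 ratio 1.49, 1.12 to 1.88) and Hist1h1a 2.81 against 1.55 CPM (0.86, 0.50 to 1.23). No interval of a gene under the minimum lay wholly below 0. For Hist1h1b the free RNA estimate described below gives 4.09 and 3.503 CPM, above both levels. In GABAergic neurons none of 26 was called, against 1.13% and 0.318%, 12 had an interval above 0, as had 11.1% of all genes, and the sum gave 0.10 (0.08 to 0.12). In GABAergic neurons of the low range 3 of 23 were called higher, against 2.03% of all genes higher and 1.4% lower, namely Hist2h4, Hist4h4 and Hist1h1b. Free RNA held more histone RNA in the knockout-labelled library too, with 1463 against 1325 CPM, and its share of neuron UMIs was estimated from haemoglobin as 11.3% against 10.2%. That estimate is too high for some genes. In excitatory neurons 5 and 7 of 60 histone genes lay at or below the level it gives. Among them Hist1h1b had 1.27 CPM in the wild-type library, where the estimate gives 3.503 CPM. With free RNA taken away by this estimate the log2 ratio in excitatory neurons was 0.08.

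Along the arcs the sign was not constant. In the middle arc the sum was lower in the knockout-labelled library, with a log2 ratio of -0.15 (-0.18 to -0.13), and 4 of 56 genes were called lower, against 1.98% of all genes lower and 2.68% higher. They were Hist1h2an, Hist1h2br, Hist1h2ag and Hist1h2bl, for which Hist1h2an had 19.1 CPM in the knockout-labelled and 31.5 CPM in the wild-type library (log2 ratio -0.72, -1.22 to -0.24). All 4 share more than 70% of their 60-base stretches with other genes. In the late arc the sum was higher, at 0.14 (0.12 to 0.16), and in the mitotic arc it gave 0.11 (0.08 to 0.15). The early and rising arcs gave 0.09 (0.01 to 0.17) and -0.02 (-0.06 to 0.02). In the early arc 2 of 30 genes were called higher (Hist1h2bm and Hist1h2bb) and 2 lower (Hist1h2ak and Hist1h4c), against 1.93% and 4.8% of all genes, and in the rising arc none of 45, against 1.49% and 3.39%. In the late arc 1 of 54 was called higher (Hist2h4) and none lower, against 3.94% and 2.3%, and in the mitotic arc 3 of 46 were called higher (Hist1h2br, Hist1h3d and Hist1h2ac) and 1 lower (Hist1h2ag), against 6.88% and 4.65%. The dividing clusters together gave -0.08 (-0.09 to -0.06), or 0.012 without the cells of top doublet score, with 1 of 54 genes called, against 1.81% higher and 1.32% lower. That gene was Hist2h4, with 17.3 CPM in the knockout-labelled and 10.8 CPM in the wild-type library (log2 ratio 0.68, 0.32 to 1.06).

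Microglia or macrophages, 205 knockout-labelled and 88 wild-type cells, were the class with the most calls. There 17 of 32 measured histone genes were called higher in knockout-labelled cells and none lower, where 9.2% of all genes were called higher and 2.34% lower. Hist1h1b had 195 CPM in the knockout-labelled and 62.8 CPM in the wild-type library (log2 ratio 1.63, 1.31 to 1.97). Hist1h2ae had 230.5 CPM in the knockout-labelled and 104 CPM in the wild-type library (log2 ratio 1.14, 0.88 to 1.41). The sums were 2319 and 1515 CPM, a log2 ratio of 0.61 (0.54 to 0.69). In the 109 and 49 cells below both cycle minimums none of 13 measured genes was called, against 8.73% of all genes higher and 2.59% lower, and the ratio turned to -0.11 (-0.21 to -0.0031). Without the cells of top doublet score, 27.3% and 13.6% of the class, 8 genes were called and the ratio was 0.33. The class joins a cluster with Pf4 and Mrc1 among its top genes, of 104 knockout-labelled and 29 wild-type cells, and another with Cx3cr1, of 101 and 59 cells. In the G2M range were 41 knockout-labelled and 9 wild-type cells of the class. The part of these differences in the calls was not tested.

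In radial glia 3 of 37 genes were called lower, against 1.17% of all genes lower and 2% higher, namely Hist2h2ac, Hist2h2aa1 and Hist1h2bj. Without the cells of top doublet score 2 genes were called, 1 of them among these 3. In radial glia below both cycle minimums 2 of 14 were called, Hist1h4i and Hist1h1d, and these were higher, against 2.67% of all genes higher and 2.74% lower. In intermediate progenitors 3 of 23 were called higher, against 1.43% of all genes higher and 1.26% lower, namely Hist4h4, Hist1h3e and Hist1h1a. With 20 CPM and 100 counts required none was called, and with at least 3000 UMIs a cell 1 was. The log2 ratio of the sum was 0.00 (-0.05 to 0.05) in radial glia and 0.14 (0.09 to 0.18) in intermediate progenitors. Cajal-Retzius cells and vascular cells had 83 and 47, and 58 and 27, cells in the knockout-labelled and wild-type libraries. Their calls, 3 of 9 higher in Cajal-Retzius cells (Hist1h1b, Hist1h2ap and Hist1h2ae) and 1 of 13 higher (Hist3h2ba) and 5 lower (Hist1h1b, Hist1h4d, Hist1h1e, Hist1h2bc and Hist1h2ab) in vascular cells, stood against 3.68% of all genes higher and 3.67% lower in the first class and 4.88% higher and 5.75% lower in the second. Top doublet scores were held by 36.1% and 14.9% of the Cajal-Retzius cells and 22.4% and 96.3% of the vascular cells of the knockout-labelled and wild-type libraries, so nearly all wild-type vascular cells had one, and their part in these calls was not tested.

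**Figure D5:**
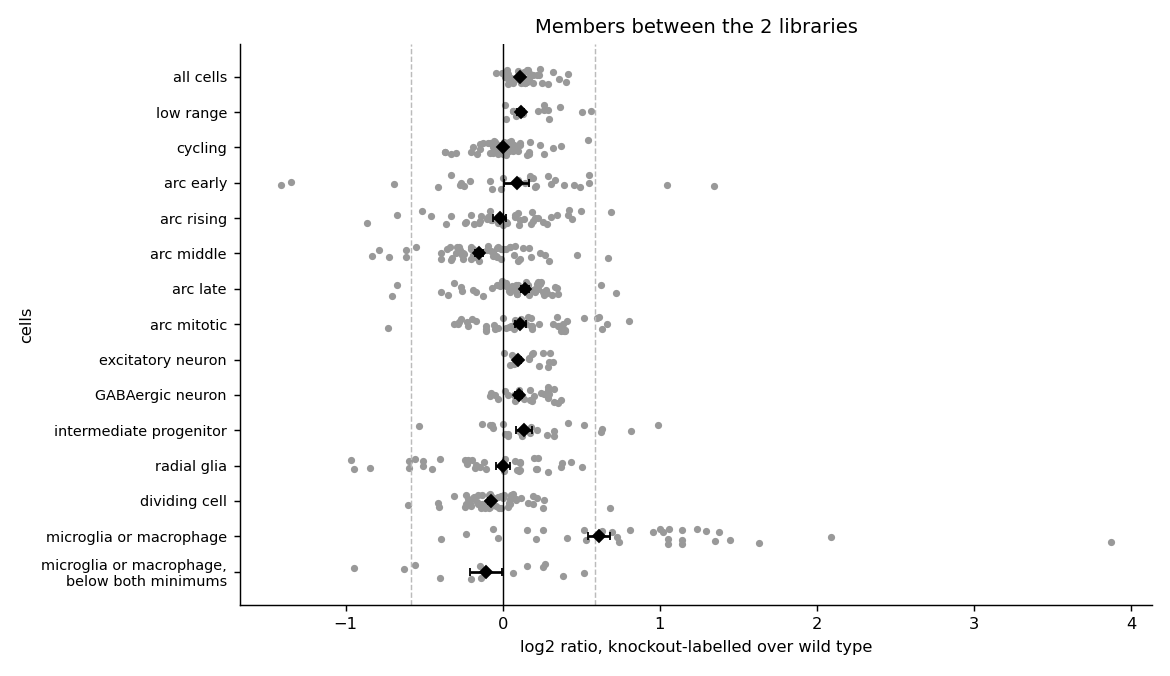
Log2 ratio, knockout-labelled over wild type, for each measured histone gene (grey points) and for the sum of the 67 genes (black diamonds with 95% counting intervals), by set of cells. Dashed lines mark 1.5-fold. Most sets of cells lie within the dashed lines, and microglia or macrophages stand to the right until only their cells below both cycle minimums are taken.

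Genes that serve histone transcripts and proteins were set against the low range in the same way, where the measured histone genes had a median log2 ratio of 2.18 and 2.55 in the S range. Of 20 measured genes for histone transcription and 3' end processing, 10 were higher in each library and none lower, against the 19.3% and 22.7% of all genes higher given above. Their median log2 ratio was 0.60 and 0.56. Cdk2, a kinase of the entry into S phase, had 34.5 against 1.14 CPM in the knockout-labelled and 37.9 against 1.43 CPM in the wild-type library. Ccne1 and Ccne2, its cyclins, had log2 ratios of 3.81 and 4.39 and of 4.39 and 4.81. Lsm11 and Lsm10, subunits of the U7 particle that processes the 3' end, had -0.41 and -0.44 and -0.23 and -0.19, and Hinfp, a transcription factor of H4 genes, had -0.05 and 0.06, none of them called. Levels of both U7 subunits were lower in the S range by less than 1.5-fold.

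Among the 17 histone chaperones and assembly factors, 11 were higher in the knockout-labelled and 12 in the wild-type library and none lower, where 19.3% and 22.7% of all genes were higher. Asf1b, a chaperone of H3 and H4, had 23.1 against 0.537 CPM in the knockout-labelled and 26.3 against 0.113 CPM in the wild-type library. Hat1, which acetylates new H4, had log2 ratios of 3.48 and 3.57, and Chaf1a, the large subunit of chromatin assembly factor 1, of 3.30 and 3.12. Ipo4, an importer of histones (-0.47 and -0.30), and Atrx (-0.19 and -0.23) and Hira (-0.10 and -0.20), which act in the deposition of H3.3, were not called. Of 11 histone variants made outside S phase, 6 were higher in each library and none lower, against the same shares. They included Cenpa, the H3 variant of centromeres (2.87 and 2.96), H2afv (1.96 and 2.01) and H2afz (1.74 and 1.78). H3f3a, which encodes H3.3, had 3031 against 2926 CPM in the knockout-labelled and 2945 against 2905 CPM in the wild-type library, and H2afj and H2afy2 had -0.00 and -0.02 and -0.02 and -0.01. Of 8 measured genes for the nuclear exosome and 3' end turnover, Exosc3, an exosome subunit, was the 1 called higher in each library (1.28 and 1.43), and Tent4a, a non-canonical poly(A) polymerase, was called lower in the wild-type library (-0.53 and -0.59). A count of 1 of 8 is below the share over all genes. The exosome nuclease Dis3 (0.45 and 0.41), Zcchc8 (0.20 and 0.18), the uridylyltransferase Tut7 (-0.16 and -0.05) and Zcchc7 (0.10 and 0.07) were not called.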

How the data were processed

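The authors deposited raw UMI counts by gene for every droplet barcode, with no cells called yet. Per the file headers these came from Cell Ranger 4, and per the submitters' processing notes from mm10. The sources used here do not state the annotation release or the treatment of introns, strand and reads that map to several genes, so near-identical histone genes and genes with an overlapping or antisense partner are uncertain. Per the labels' protocols, forebrains were dissociated with papain and 2 were pooled for each library. The libraries held 150828048 UMIs (knockout-labelled) and 123978461 UMIs (wild type), of which 131574213 and 110246220 were in cells.

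For each set of cells of a library, a gene's counts were added up and scaled by the set's total UMIs to CPM. Levels carry exact 95% Poisson intervals and ratios exact 95% Clopper-Pearson intervals, which cover counting error only. The intervals and the call rule were tested on simulated Poisson counts, the model that the intervals assume. Such counts cannot show variation between cells or animals. A first version of the test did not pass, and its number of draws and its criterion were changed before it did. Cells were clustered with scanpy 1.11.5 and leidenalg 0.10.2 (counts scaled to 10000 a cell, 2000 variable genes without the 67 histone genes, 30 principal components, 15 neighbours, resolution 1), and 30 clusters were named from marker lists by a rule set after the clusters had been seen. Doublets were scored but kept, and leaving out the top scores, at 0.8% per 1000 cells, is an alternative. Every gene with at least 100 UMIs over both libraries is named with its level, and of each other list the 3 genes with the largest and the 3 with the smallest S range over low range ratio, as far as measured in both libraries, except 1 gene that is not reported here. The S phase and G2 and M phase lists chose the ranges, so their own ratios are not results. The members and lists were chosen with earlier results of these data known, and the arcs of cycling cells were added after the data had been seen. UMIs are not divided by gene length, so levels are compared between sets of cells, and where groups of genes are set side by side a value for each 1000 bases is given too.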

Additional observations from a re-analysis of the deposited data

How the results depend on the processing

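No paired analysis was possible because each group is 1 library. No replicate could be left out for the same reason. The sums and counts were recomputed under 13 alternatives, and under 2 restrictions to part of a class that were added after the data had been seen. Of 306 recomputed values, 224 stayed within the counting interval of the reported value, or within 1.5 times for a count, and 82 did not. One changed the direction of a called value, the histone sum in microglia or macrophages below both minimums, which is -0.11. Ratios too small to be called are not in that count. Among these the library ratio of dividing cells, -0.08, turned positive under some alternatives given below. The causes of these changes were not tested. For single genes, of 354 recomputed log2 ratios of the middle arc over the low range, 288 stayed within their interval and 66 did not, and none changed sign. Counts this large give intervals so narrow that shifts of a few hundredths on the log2 scale fall outside them. In what follows each ratio is the log2 ratio of the histone sum. The library ratio sets knockout-labelled over wild-type cells, the S range ratio the S range over the low range, the middle arc ratio the middle arc over the low range, and the neuron ratio excitatory over GABAergic neurons.

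With a median-of-ratios size factor, the library ratio was 0.13 in all cells, 0.017 in the S range, 0.056 in the G2M range, 0.032 in cycling cells, -0.056 in dividing cells and 0.53 in microglia or macrophages. With no filter beyond 1 count, the genes called between the libraries numbered 3 in the low range, 4 in excitatory neurons and 1 in GABAergic neurons. With 20 CPM and 100 counts required, the genes called between the libraries numbered 1 in radial glia, 0 in intermediate progenitors and 0 in dividing cells. With equal weights for clusters, the library ratio was 0.059 in GABAergic neurons and -0.13 in dividing cells. Without the cells of top doublet score, the library ratio was 0.017 in the S range, 0.090 in the G2M range, 0.035 in cycling cells, 0.082 in excitatory neurons, 0.12 in GABAergic neurons, 0.012 in dividing cells and 0.33 in microglia or macrophages, and the genes called between the libraries numbered 1 in the S range, 1 in the G2M range, 1 in the low range, 1 in cycling cells and 8 in microglia or macrophages. The middle arc ratio was 2.90 in the knockout-labelled library and 3.17 in the wild-type library. The neuron ratio was -0.69 in the knockout-labelled library. With at most 5% mitochondrial UMIs, the library ratio was -0.014 in cycling cells and -0.094 in dividing cells, and the genes called between the libraries numbered 2 in dividing cells. The S range ratio was 0.81 in the knockout-labelled library. The middle arc ratio was 2.74 in the knockout-labelled library. The neuron ratio was -0.58 in the knockout-labelled library and -0.60 in the wild-type library. With at least 3000 UMIs a cell, the library ratio was 0.095 in all cells and 0.067 in GABAergic neurons, and the genes called between the libraries numbered 1 in intermediate progenitors. The neuron ratio was -0.53 in the knockout-labelled library and -0.56 in the wild-type library. With a minimum of 3 list UMIs, the library ratio was 0.042 in the S range and 0.055 in the G2M range. The S range ratio was 0.43 in the knockout-labelled library and 0.50 in the wild-type library, and the genes higher numbered 22 in the knockout-labelled library, and the genes lower numbered 0 in the knockout-labelled library and 0 in the wild-type library. With a minimum of 8, the library ratio was -0.11 in the S range. The S range ratio was 1.09 in the knockout-labelled library and 1.32 in the wild-type library. With cells thinned to 1500 UMIs, the library ratio was -0.11 in the S range and 0.023 in cycling cells, and the genes called between the libraries numbered 1 in the S range, 1 in the G2M range, 1 in the low range and 1 in cycling cells. The S range ratio was 1.18 in the knockout-labelled library and 1.42 in the wild-type library. The middle arc ratio was 2.96 in the knockout-labelled library. With free RNA subtracted by the haemoglobin estimate, which is too high for some genes, the library ratio was 0.081 in excitatory neurons, and the genes called between the libraries numbered 1 in the low range and 5 in radial glia. The S range ratio was 0.94 in the knockout-labelled library and 1.07 in the wild-type library. The middle arc ratio was 2.98 in the knockout-labelled library and 3.22 in the wild-type library. The neuron ratio was -0.72 in the knockout-labelled library and -0.70 in the wild-type library. At clustering resolution 2, the library ratio was 0.066 in radial glia, 0.22 in intermediate progenitors and 0.0036 in dividing cells, and the genes called between the libraries numbered 1 in radial glia. The neuron ratio was -0.66 in the knockout-labelled library. In low range cells alone, the genes called between the libraries numbered 3 in GABAergic neurons. The neuron ratio was -0.44 in the knockout-labelled library and -0.43 in the wild-type library, and the genes lower numbered 13 in the knockout-labelled library and 13 in the wild-type library. In cells below both cycle minimums alone, the library ratio was -0.11 in microglia or macrophages and 0.097 in radial glia, and the genes called between the libraries numbered 0 in microglia or macrophages.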
